A study of Homo sapiens with 6 samples.

Results

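The BCL2 family decides whether the outer mitochondrial membrane stays closed or is opened to start apoptosis, and its genes are described here in PC-3/Mc cells, set against PC-3/S cells; both belong to PC-3, an established line of human prostate cancer. The members are all probe sets annotated to BCL2, BCL2L1, MCL1, BCL2A1, BAX, BAK1, BCL2L11, BBC3, PMAIP1 or BID alone. They number 30 of 54613 probe sets other than controls and stand for 9 of 19775 genes. BBC3, which encodes PUMA, had its single probe set annotated together with microRNA genes and is not analysed here. The list was chosen by measured values, namely the difference of these genes between the lines, BCL2A1 above all, so the members' values are a description and carry no p-value.

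PC-3 was established from a bone metastasis of prostate carcinoma, and the series concerns the epithelial-mesenchymal transition and tumor-initiating attributes. Total RNA of cells harvested before confluence was measured on 3 one-colour Affymetrix arrays of PC-3/Mc and 3 of PC-3/S. The labels name the lines but not how they were derived, and call the arrays of a line biological replicates without saying whether these were separate cultures, so errors cover the variation among these arrays, part of which could be technical. Values are deposited log2 expression levels, and differences subtract the PC-3/S mean from the PC-3/Mc mean, with n = 3 arrays per line.

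Proteins of the family share short stretches called BCL2 homology (BH) domains. The effectors BAX and BAK1 form pores in the outer membrane and release cytochrome c. The anti-apoptotic proteins BCL2, BCL-xL (from BCL2L1), MCL1 and BCL2A1 hold the effectors and their activators in check. BH3-only proteins, among them BIM (from BCL2L11), BID and NOXA (from PMAIP1), start the process by occupying the groove of the anti-apoptotic proteins or by activating the effectors. RNA from whole cultures does not tell fewer expressing cells from less RNA per cell.

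Array quality was described by medians, correlations and control probe sets. Array medians ran from 4.98 to 5.05 in PC-3/Mc and 5.02 to 5.09 in PC-3/S, and correlations across probe sets were 0.995 to 0.997 within a line and 0.949 to 0.952 between lines. For GAPDH, the gap between the 3' and the 5' control probe set averaged -0.033 ± 0.066 in PC-3/Mc, against 0.041 ± 0.031 in PC-3/S (SD, n = 3; exact permutation p = 0.3, two-sided, where the smallest possible is 0.1). For ACTB the same gap averaged 0.055 ± 0.121 in PC-3/Mc, against 0.129 ± 0.059 in PC-3/S (SD, exact permutation p = 0.6, two-sided). PC-3/Mc replicate 3 stood apart at -0.086, against 0.122 and 0.127 on the other arrays of its line. With 3 arrays per line these tests cannot show that the arrays were alike. CTNNA1, known to be deleted in PC-3, read at most 5.18 on its 5 probe sets, so readings no higher than this may be background. A fold against a line at that level is a lower bound, with each of its arrays raised to 5.18. Of 5 epithelial markers 4 were called higher and 1 lower in PC-3/Mc, and their summed linear level was 12958 to 13304 in PC-3/Mc, against 6497 to 6696 in PC-3/S. Keratins were well above background in both lines, KRT8 at 9.81, KRT18 at 12.48 and KRT19 at 11.28 in PC-3/Mc, against 8.78, 11.32 and 11.76 in PC-3/S. The adhesion gene EPCAM was at 11.88 in PC-3/Mc, against 6.44 in PC-3/S, and E-cadherin, CDH1, was at 7.67 in PC-3/Mc, against a mean under the background level in PC-3/S (at least 5.65-fold; its 2 probe sets ran from 0.45 to 3.67). The part of these marker differences in the members' differences was not tested.

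A probe set was called when its adjusted p lay under 0.05 in limma, with Benjamini-Hochberg adjustment over all 54613 probe sets. Of the 30 member probe sets 22 were called, 12 higher and 10 lower in PC-3/Mc. Over all probe sets 35.9% were called, 18.4% higher and 17.5% lower, and among the 27417 probe sets above 5.18 in at least 1 line 60.1% were called, against 19 of 26 such members. For 22 members the readings of PC-3/Mc and PC-3/S were fully separate, where 45.3% of all probe sets had no overlap. Members differing by at least 1 numbered 12, with 7 higher and 5 lower, where 8.35% of all probe sets differed that much, 4.41% higher and 3.94% lower. Nothing is read from these shares, since the list was drawn up on this contrast and probe sets of a gene are not independent of each other. The median difference was -0.04 over the members and -0.01 over all probe sets.

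**Figure D1:**
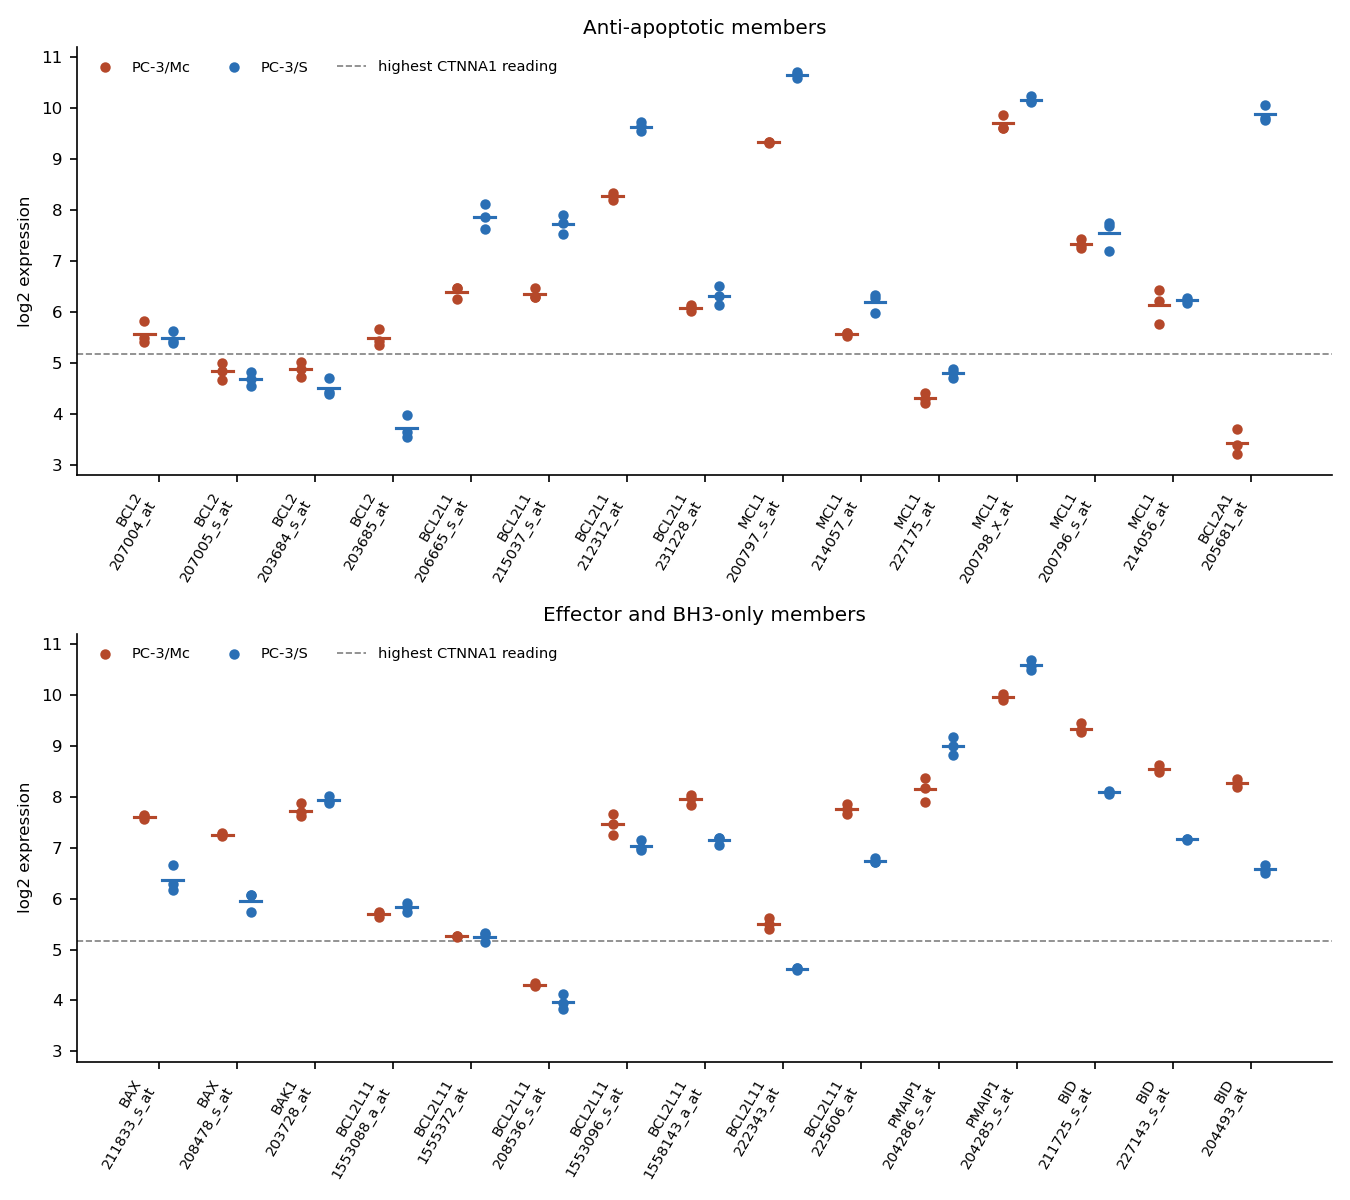
Log2 expression (y axis) on each array for all 30 member probe sets (x axis), PC-3/Mc left of PC-3/S in each pair; points are arrays, short lines are means of 3 arrays, and the dashed line is the highest CTNNA1 reading (5.18). Among the members BCL2A1 separates the lines most, with PC-3/Mc under the dashed line and PC-3/S near 9.88.

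Among anti-apoptotic genes, BCL2A1, BCL2L1 and MCL1 were lower in PC-3/Mc, while BCL2 was dim and higher on part of its probe sets. Of the 15 anti-apoptotic probe sets 8 were called lower and 2 higher, with a median difference of -0.46. Of the 3 effector probe sets 2 were called higher and 0 lower, and of the 12 BH3-only probe sets 8 were called higher and 2 lower, with medians of 1.24 and 0.62. The lower BH3-only probe sets both belonged to PMAIP1. Both higher effector probe sets belonged to BAX, and the higher BH3-only ones to BCL2L11 and BID, so these counts are not counts of genes. With 1 probe set a gene, 3 of 9 members were called higher and 4 lower in that fit, with a median of -0.21. Over all genes, fitted on their own, 23.2% were called higher and 22.7% lower.

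BCL2A1 encodes A1 (BFL-1), a survival protein best known from blood cells, where NF-kappaB induces it. Its single probe set, 205681_at, read 3.39, 3.69 and 3.21 on the PC-3/Mc arrays, against 9.81, 9.76 and 10.06 on the PC-3/S arrays. All 3 PC-3/Mc readings were at background and all 3 PC-3/S readings far above it. The difference was -6.44 ± 0.13 (SE), at least 26.0-fold, and BCL2A1 ranked 5 of 19775 genes from the most negative difference. Of 15 markers of leukocytes, where the gene is usually expressed, 13 were measured, with 0 called higher and 3 lower in PC-3/Mc, where 23.2% and 22.7% of all genes were called. Their summed linear level was 359 to 398 in PC-3/Mc and 401 to 418 in PC-3/S, and the pan-leukocyte gene PTPRC was under the background level at 3.90 in PC-3/Mc, against 3.72 in PC-3/S. The 3 lower markers were CORO1A (-0.92 ± 0.08), CD79A (-0.38 ± 0.12, arrays overlapping) and ITGAM (-0.30 ± 0.10). CORO1A was under the background level at 4.82 in PC-3/Mc, against 5.75 in PC-3/S.

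The 300 bases around the BCL2A1 start (250 before, 50 after; GRCh38.p14 from RefSeq, chr15:79971147-79971446, minus strand) are shown because this gene has the largest difference among the members; capitals mark a TATAAA motif that begins 70 bases before the start.
BCL2A1: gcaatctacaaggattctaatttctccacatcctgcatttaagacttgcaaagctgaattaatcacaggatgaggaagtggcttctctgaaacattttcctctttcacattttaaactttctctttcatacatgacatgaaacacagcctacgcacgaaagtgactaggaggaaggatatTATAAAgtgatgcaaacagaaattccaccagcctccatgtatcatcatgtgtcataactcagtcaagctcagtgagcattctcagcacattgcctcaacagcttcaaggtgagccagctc
Searched on both strands, TATAAA occurs in 11.5% of the 35116 windows in that table. It occurs in a window of 2 of the 8 members held there, BCL2A1 and BCL2L1. Some genes have several windows, so shares of windows and counts of members are in unlike units. The window has 41% G and C, against a median of 58.7% over all windows. A form of the consensus motif bound by NF-kappaB occurs in 1.40% of all windows and in 0 of the 8 members, which says only that its letters are not in these windows. GGGCGG, the GC box, occurs in 45.0% of all windows and in a window of 6 of the 8 members, BCL2A1 and BCL2 being the others.

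The genes whose profile over the 6 arrays was most like that of BCL2A1 were SRGN, FN1, BASP1, COX7B2 and ARMCX3. Likeness was the root mean square distance between profiles centred on their own means, from 0.075 for SRGN and 0.136 for FN1 to 0.217 for ARMCX3. SRGN, which encodes the proteoglycan serglycin, read 5.62, 5.93 and 5.61 in PC-3/Mc, against 11.98, 12.08 and 12.32 in PC-3/S. The difference between the lines makes up nearly all of each such profile, so the ranking mostly sorts genes by its size, here between -6.04 and -6.59.

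BCL2L1 is spliced into the survival form BCL-xL and a short form that promotes death. Probe set 212312_at, which represents the gene, read 8.19, 8.28 and 8.33 in PC-3/Mc, against 9.54, 9.64 and 9.72 in PC-3/S, a difference of -1.37 ± 0.09 or 2.58-fold lower. Probe set 206665_s_at read 6.46, 6.46 and 6.24 in PC-3/Mc, against 7.62, 7.86 and 8.12 in PC-3/S (-1.48 ± 0.12). These groups did not overlap, nor did those of 215037_s_at, with means of 6.35 ± 0.10 in PC-3/Mc, against 7.73 ± 0.19 in PC-3/S (SD; difference -1.37 ± 0.11). The fourth, 231228_at, read 6.10, 6.01 and 6.14 in PC-3/Mc, against 6.51, 6.31 and 6.12 in PC-3/S, so its groups overlapped and it was not called (-0.23 ± 0.11). The annotation used here does not say which splice form each probe set detects.

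MCL1, a short-lived survival protein that binds BIM, NOXA and BAK1, was measured by 6 probe sets that differed in size. Probe set 200797_s_at read 9.33, 9.32 and 9.34 in PC-3/Mc, against 10.71, 10.67 and 10.60 in PC-3/S, a difference of -1.33 ± 0.08 or 2.51-fold lower. Probe set 200798_x_at gave 9.62, 9.87 and 9.61 in PC-3/Mc, against 10.14, 10.11 and 10.24 in PC-3/S. Neither pair of groups overlapped, but the second difference (-0.46 ± 0.10) was smaller than the first by several times either error. Probe sets 214057_at (-0.62 ± 0.10) and 227175_at (-0.50 ± 0.09) were lower without overlap as well, the second of them under the background level in both lines. On 200796_s_at (-0.21 ± 0.13) and 214056_at (-0.09 ± 0.14) the arrays of the lines overlapped. All 6 differences were negative, from -1.33 to -0.09, with a median of -0.48.

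BCL2 itself, the founding survival gene of the family, was dim. Probe set 207004_at, which represents the gene, read 5.49, 5.40 and 5.81 in PC-3/Mc, against 5.63, 5.43 and 5.39 in PC-3/S, with overlapping groups and a difference of 0.09 ± 0.12. Probe set 203685_at read 5.35, 5.67 and 5.43 in PC-3/Mc, against 3.97, 3.53 and 3.64 in PC-3/S. Its groups did not overlap and differed by 1.77 ± 0.12 as measured, but PC-3/S was at background, which leaves a bound of at least 1.24-fold. Probe sets 203684_s_at (0.37 ± 0.11, called) and 207005_s_at (0.15 ± 0.11, not called) read under 5.18 on every array of both lines.

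**Figure D2:**
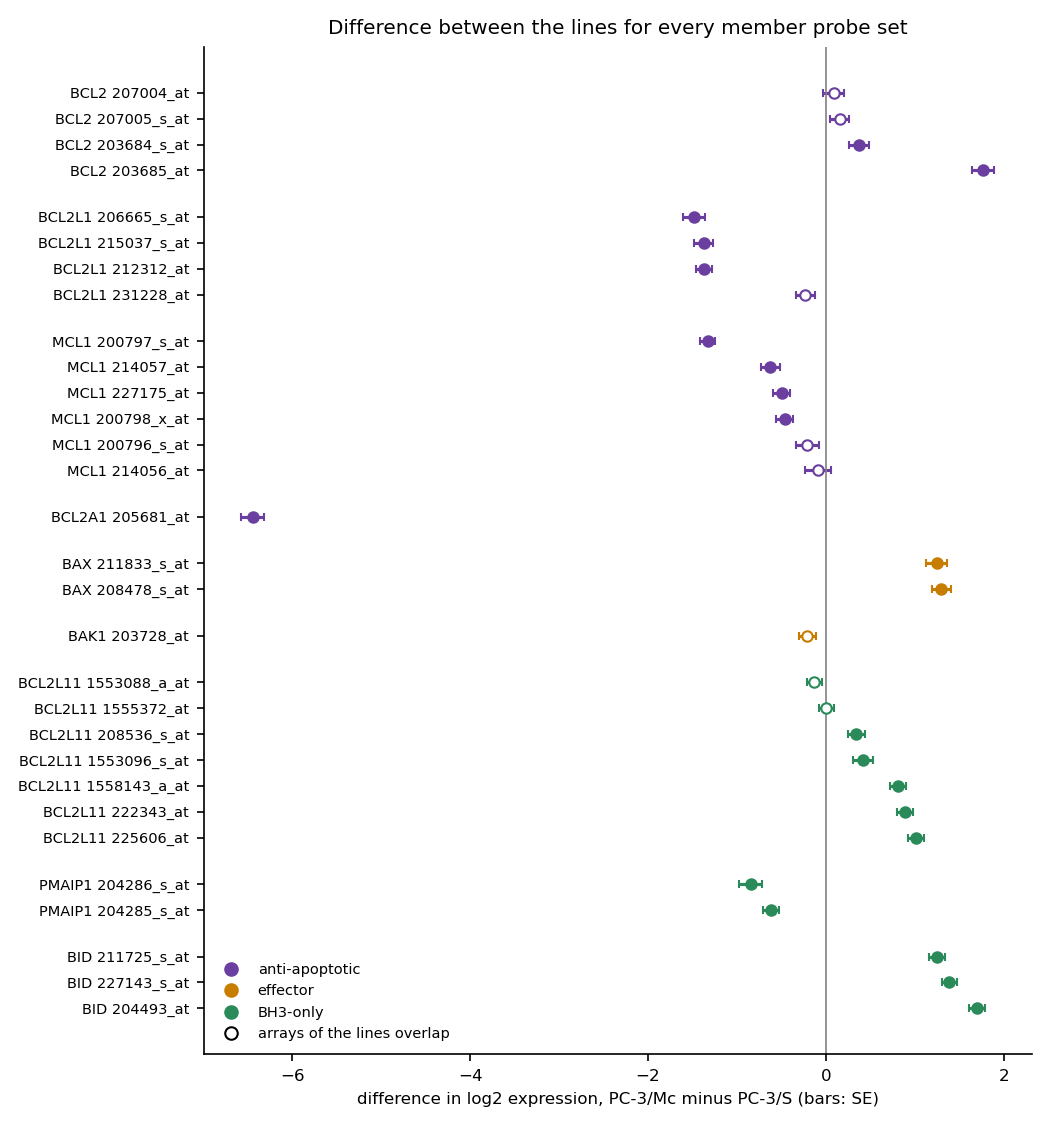
Difference in log2 expression, PC-3/Mc minus PC-3/S (x axis), for all 30 member probe sets (y axis), with bars for the SE and colours for the roles; open circles are probe sets whose arrays overlap between the lines. BCL2A1 lies at -6.44, probe sets of BAX and BID lie between 1.24 and 1.70, and both PMAIP1 probe sets lie left of 0.

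The effector BAX, which moves from the cytosol to the mitochondrion when activated, was higher in PC-3/Mc on both of its probe sets. Probe set 211833_s_at read 7.56, 7.62 and 7.65 in PC-3/Mc, against 6.66, 6.28 and 6.16 in PC-3/S, a difference of 1.24 ± 0.12 or 2.37-fold. Probe set 208478_s_at read 7.27, 7.22 and 7.29 in PC-3/Mc, against 6.08, 5.73 and 6.07 in PC-3/S (1.30 ± 0.10). The PC-3/Mc arrays lay close together and above all PC-3/S arrays on both. BAK1, the effector that resides in the outer membrane, read 7.88, 7.61 and 7.69 in PC-3/Mc, against 7.92, 7.88 and 8.01 in PC-3/S. Its groups overlapped at the edge, and the difference of -0.21 ± 0.10 was not called.

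The BAX window (GRCh38.p14 from RefSeq, chr19:48954625-48954924, plus strand) is shown because both probe sets of this effector were higher in PC-3/Mc, as was the factor MYC described further on; capitals mark CACGTG, the E-box that MYC with its partner MAX can bind.
BAX: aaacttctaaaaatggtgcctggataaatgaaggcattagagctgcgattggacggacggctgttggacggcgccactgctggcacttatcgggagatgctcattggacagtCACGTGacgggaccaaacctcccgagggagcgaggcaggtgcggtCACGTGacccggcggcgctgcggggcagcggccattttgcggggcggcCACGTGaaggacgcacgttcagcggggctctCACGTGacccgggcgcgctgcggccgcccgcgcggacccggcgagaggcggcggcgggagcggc
CACGTG reads the same on both strands and begins 138, 93, 45 and 14 bases before the start. It occurs in 7.26% of all 35116 windows, and in a window of 2 of the 8 members in the table, BAX and BID. Some genes, BID among them, have several windows, so the share and the count are in unlike units. A match describes the letters and does not show that a factor binds there. Whether MYC acted on BAX in these cells was not tested.

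Among BH3-only genes, BID encodes a protein that caspases cut into an active fragment, which links death receptors to mitochondria. Probe set 211725_s_at read 9.44, 9.26 and 9.31 in PC-3/Mc, against 8.10, 8.05 and 8.11 in PC-3/S, 2.38-fold higher. The largest of its differences was that of 204493_at, which read 8.34, 8.28 and 8.19 in PC-3/Mc, against 6.56, 6.50 and 6.66 in PC-3/S (1.70 ± 0.09, 3.24-fold). Together with 227143_s_at (1.39 ± 0.08), every BID probe set was higher in PC-3/Mc without overlap, and the gap was many times the spread within a line.

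BCL2L11 encodes BIM, an activator of BAX and BAK1 that all anti-apoptotic members can bind. Probe set 1558143_a_at, which represents the gene, read 7.85, 8.04 and 7.98 in PC-3/Mc, against 7.19, 7.05 and 7.20 in PC-3/S (0.81 ± 0.09). Probe set 225606_at read 7.85, 7.66 and 7.76 in PC-3/Mc, against 6.72, 6.81 and 6.72 in PC-3/S (1.01 ± 0.09, 2.02-fold). On 5 of the 7 BCL2L11 probe sets PC-3/Mc was higher without overlap, including 222343_at (0.89 ± 0.09, at least 1.26-fold with PC-3/S at background), 1553096_s_at (0.42 ± 0.11) and the dim 208536_s_at (0.34 ± 0.10). The last of these, 208536_s_at, read under 5.18 on every array of both lines, so its difference may be one of background. The remaining 1553088_a_at (-0.13 ± 0.09) and 1555372_at (0.01 ± 0.09) had overlapping groups at levels between 5.14 and 5.92.

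PMAIP1 encodes NOXA, which binds MCL1 and A1. The gene ran against BCL2L11 and BID, the other measured BH3-only members, but BAD and BMF, described further on, were also called lower and BIK higher. Probe set 204285_s_at read 9.97, 10.03 and 9.89 in PC-3/Mc, against 10.69, 10.49 and 10.56 in PC-3/S, a difference of -0.62 ± 0.09 or 1.54-fold lower. Probe set 204286_s_at averaged 8.15 ± 0.24 in PC-3/Mc, against 8.99 ± 0.18 in PC-3/S (SD; difference -0.84 ± 0.13). The groups did not overlap on either probe set. PMAIP1 and 2 of its partners, MCL1 and BCL2A1, were all lower in PC-3/Mc.

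**Figure D3:**
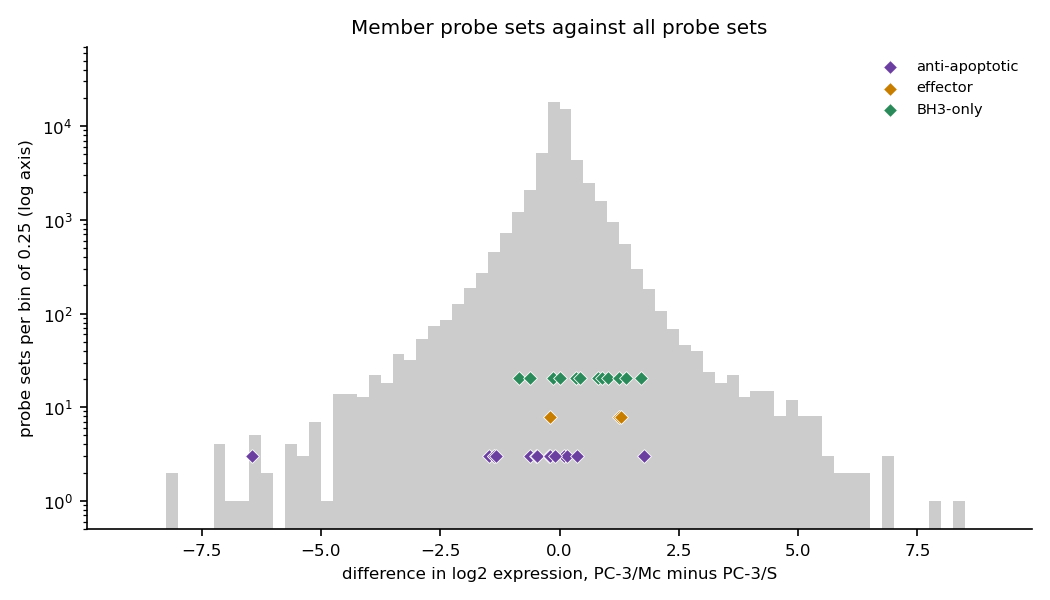
Number of probe sets per bin of 0.25 (y axis, log scale) by difference in log2 expression, PC-3/Mc minus PC-3/S (x axis), for all 54613 probe sets (grey), with the member probe sets as diamonds in rows by role at heights that have no meaning. BCL2A1 lies in the far left tail, and the other members lie between -1.48 and 1.77.

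The other genes of the pathway were taken from 10 lists, with the probe set of highest mean level standing for each gene. Of 100 listed genes 93 were measured and the remaining 7 are not analysed here. In limma with Benjamini-Hochberg adjustment over all 19775 genes, 44 of the 93 rose and 24 fell in PC-3/Mc relative to PC-3/S, and 25 did not pass, with a median difference of 0.20. Over all genes 45.9% were called, 23.2% higher and 22.7% lower, with a median of -0.03. A second fit left out genes under the 40th percentile of mean level. There 8159 of 11865 genes were called, 4325 higher and 3834 lower, against 68 of 87 list genes, 46 higher and 22 lower. Nothing is read from these shares, since the lists were chosen with earlier results of these data known. Adjusted p-values below come from the fit over all 19775 genes.

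BIK, a BH3-only gene of the endoplasmic reticulum, rose in PC-3/Mc to 7.79 ± 0.10, against 5.95 ± 0.10 in PC-3/S (SD; 3.59-fold, adjusted p = 3.3e-08). BAD, a BH3-only protein silenced by phosphorylation, fell to 7.92 ± 0.13 in PC-3/Mc, against 8.89 ± 0.03 in PC-3/S (adjusted p = 4e-06), although its 3 probe sets ran from -1.14 to 0.16. BMF fell too (-0.55 ± 0.08, adjusted p = 0.00024), and HRK was dim and not called (-0.17 ± 0.11, adjusted p = 0.26). BOK, an effector relative, rose by 0.90 ± 0.10 (adjusted p = 2.2e-05) on 1 probe set, while the other differed by 0.04. Other BH3-only and effector genes thus split evenly, with 2 higher, 2 lower and 1 not called of 5. Of the other anti-apoptotic genes, BCL2L2 (BCL-w) rose slightly (0.32 ± 0.08, adjusted p = 0.0057) and BCL2L10 did not pass (-0.01 ± 0.10, adjusted p = 0.93).

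In the 14 BCL2-related genes of other or less settled roles, 6 rose, 4 fell and 4 did not pass, with a median of -0.15. BAG1, a cochaperone that binds BCL2, rose 2.49-fold (adjusted p = 2e-07), although its 3 probe sets ran from 0.14 to 1.32. Of 11 mitochondrial partners and released factors 8 rose, 1 fell and 2 did not pass, with a median of 0.47. The fission GTPase DNM1L rose 2.49-fold (adjusted p = 2.4e-07), the flavoprotein AIFM1 2.29-fold (adjusted p = 3e-07) and the channel gene VDAC3 2.06-fold (adjusted p = 7.2e-07). The 3 DNM1L probe sets ran from 0.10 to 1.74, and those of VDAC3 from 0.63 to 1.04. CYCS did not pass on its brightest probe set, but its 3 probe sets ran from -1.96 to 0.14. The single lower gene, chosen after its value was seen, was DIABLO, whose protein antagonises inhibitors of apoptosis (-0.70 ± 0.07, adjusted p = 1.4e-05).

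Of 10 caspases and adaptors measured, 7 rose in PC-3/Mc, 0 fell and 3 did not pass, all by less than 1 on the log2 scale and with a median of 0.33. Probe sets could disagree in genes called higher, as the 14 of CFLAR ran from -0.49 to 0.32 and the 3 of CASP8 from -0.34 to 0.52. Of 6 inhibitors of apoptosis, BIRC2, which encodes the ubiquitin ligase cIAP1, fell 4.01-fold to 10.01 ± 0.07 in PC-3/Mc, against 12.01 ± 0.01 in PC-3/S (adjusted p = 6.2e-09). XIAP (0.56 ± 0.12, adjusted p = 0.003), BIRC6 (0.46 ± 0.10, adjusted p = 0.0025) and BIRC5, or survivin (0.42 ± 0.08, adjusted p = 0.00085), rose. NAIP, dim in both lines, was called lower although its arrays overlapped (-0.30 ± 0.11, adjusted p = 0.038), and BIRC7 did not pass (0.13 ± 0.12, adjusted p = 0.45).

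Death receptors moved in both directions. TNFRSF1A, the main receptor for tumor necrosis factor, rose 2.56-fold in PC-3/Mc (adjusted p = 3.2e-07). TNFRSF21 fell 2.65-fold (adjusted p = 9.5e-08) and TNFRSF10B, a receptor for the ligand TRAIL, fell 2.36-fold (adjusted p = 1.2e-06), although the 4 TNFRSF10B probe sets ran from -1.24 to 0.09. TNFRSF25 was called lower (-0.25 ± 0.09, adjusted p = 0.036), while FAS (-0.21 ± 0.12, adjusted p = 0.18) and TNFRSF10A (0.07 ± 0.08, adjusted p = 0.52) did not pass.

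Enzymes that add or remove ubiquitin on MCL1, and so set how long the protein lasts, were 3 higher, 0 lower and 3 not called of 6. The deubiquitinase USP13 rose 2.79-fold (adjusted p = 1.5e-07). The ligases FBXW7 (0.44 ± 0.08, adjusted p = 0.00085) and MARCHF5 (0.38 ± 0.08, adjusted p = 0.0019) rose by less. HUWE1 (0.20 ± 0.08, adjusted p = 0.059), BTRC (0.17 ± 0.09, adjusted p = 0.13) and USP9X (0.13 ± 0.08, adjusted p = 0.22) did not pass. All 3 were called higher once the _x_at and _s_at probe sets, which can match several transcripts, were dropped (HUWE1 0.74, BTRC 0.47, USP9X 0.31). Their probe sets disagreed, however. The 5 of HUWE1 ran from -0.24 to 0.74, the 5 of BTRC from -0.17 to 0.47 and the 4 of USP9X from -0.005 to 0.77.

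Transcription factors known to act on BCL2 family genes gave 4 higher, 7 lower and 6 not called of 17 measured, with a median of -0.20. MYC, which was bright in both lines, rose to 13.08 ± 0.05 in PC-3/Mc, against 11.38 ± 0.01 in PC-3/S (3.25-fold, adjusted p = 1.7e-08). The NF-kappaB subunit RELB fell 4.03-fold to 5.30 ± 0.19 in PC-3/Mc, against 7.31 ± 0.06 in PC-3/S (adjusted p = 5.2e-08). Its relatives, chosen after their values were seen, were NFKB1 (-0.74 ± 0.09), RELA (-0.56 ± 0.09) and NFKB2 (-0.57 ± 0.11), all called lower, and REL, which was not (-0.11 ± 0.10, adjusted p = 0.42). The 3 NFKB2 probe sets ran from -0.57 to -0.10. MITF, of the same list, was called higher (0.73 ± 0.10, adjusted p = 0.0001), although its 3 probe sets ran from -0.22 to 0.73. Whether any of these factors acted on BCL2A1 in these cells was not tested. DDIT3, the stress factor CHOP that can induce BIM in other settings, fell 4.12-fold (adjusted p = 4.3e-08).

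Growth arrest and DNA damage response genes outside the family gave 9 higher, 5 lower and 2 not called of 16 measured, with a median of 0.29. The 3 largest calls were all lower in PC-3/Mc. TP53INP1 was under the background level in PC-3/Mc at 4.25 ± 0.09, against 6.32 ± 0.11 in PC-3/S, at least 2.20-fold (adjusted p = 1.4e-08), although its 3 probe sets ran from -2.07 to 0.09. PHLDA3 fell 2.17-fold (adjusted p = 4.5e-06) and SESN2 2.04-fold (adjusted p = 2.3e-05).

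**Figure D4:**
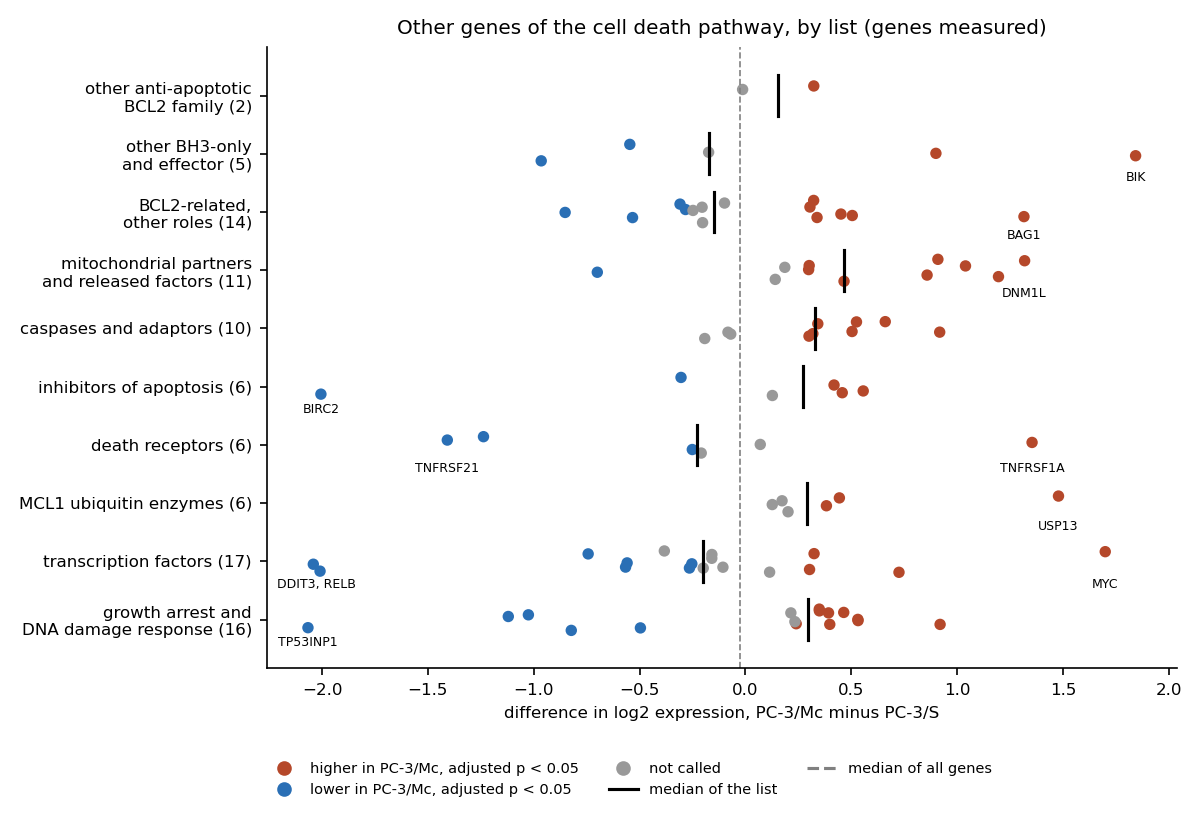
Difference in log2 expression, PC-3/Mc minus PC-3/S (x axis), for the 93 measured genes of the 10 lists (y axis, number measured in brackets); red points are called higher and blue points lower in PC-3/Mc, grey points are not called, black bars are list medians and the dashed line is the median of all genes (-0.03). BIRC2, RELB, DDIT3 and TP53INP1 lie near -2.0, BIK at 1.84 and MYC at 1.70.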

How the data were processed

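Expression in 3 PC-3/Mc and 3 PC-3/S arrays came as log2 values in a table deposited by the authors, which lists 54675 probe sets. Per the labels' protocols, RNA was column-purified and biotin-labelled by the standard Affymetrix procedure; the sources used here do not state how background was corrected or arrays normalized. A log base of 2 was settled from the range of the values. No further normalization was applied in the main test. Any earlier scaling of arrays hides a shift common to most transcripts.

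Names came from the platform annotation. Apart from 62 controls, 41091 probe sets had 1 symbol, 1801 several and 11721 none. The lines were compared by limma 3.58.1 under R 4.3.3 (two-sided, lmFit then eBayes) over 54613 probe sets and over 19775 genes, the probe set of highest mean level standing for its gene, with Benjamini-Hochberg adjustment. The step was tested on simulated data. Array measures used exact permutation tests.

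Members and lists were chosen with earlier results of these data known. Named were all members, whole lists of at most 7 genes, up to 6 called genes per direction and list that differed by at least 1 and reached the median level of all genes (5.98), and the 5 profiles nearest BCL2A1. Alternatives were a replicate block, quantile normalization, median centring, a level filter, leaving out probe sets ending in _x_at or _s_at, trended robust variances, gene means, another background level and leaving out each array. Precision is limited by having 3 arrays per line; the median SE of a difference was 0.098.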

Additional observations from a re-analysis of the deposited data

How the results depend on the processing

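Across all alternatives, 329 repeats of the member probe sets kept their direction and their side of the threshold; 6 lost a call, 4 gained one and 3 changed sign. The lost calls were those of BCL2 203684_s_at and of BCL2L11 208536_s_at and 1553096_s_at when single arrays were left out. BCL2L1 231228_at and MCL1 200796_s_at gained a call when 1 PC-3/S array was left out, and BAK1 was called lower after quantile normalization (-0.29) and without PC-3/Mc replicate 1 (-0.28). Signs changed only when 1 array was left out, with ranges of -0.036 to 0.17 for BCL2 207004_at, -0.24 to 0.10 for MCL1 214056_at and -0.050 to 0.041 for BCL2L11 1555372_at, none of them called. Leaving out probe sets ending in _x_at or _s_at removed every BAX and PMAIP1 probe set and reduced the called probe sets to 11981 of the fewer tested, and left fewer list genes measured. Called were then 5 of 6 mitochondrial factors, 3 of 7 caspases and adaptors, 2 of 4 inhibitors of apoptosis, 2 of 5 death receptors and 7 of 11 growth arrest genes, while MCL1 enzymes gained, with 6 of 6. The calls of BOK (0.04, adjusted p = 0.82), XIAP (0.29, adjusted p = 0.158) and TNFRSF25 (-0.03, adjusted p = 0.852) ended. NAIP (-0.28, adjusted p = 0.132) lost its call there too. NAIP and TNFRSF25 also lost their calls with median centring (adjusted p = 0.0558 and 0.0936), with the replicate block (0.0872 and 0.0684) and without single arrays, and TNFRSF25 with trended robust variances (0.0632). HUWE1 gained a call with centring (adjusted p = 0.0329), the level filter (0.0275), trended robust variances (0.011) and without _x_at or _s_at probe sets (0.000297), where BTRC (0.000888) and USP9X (0.012) did as well. USP9X was also called as a gene mean (0.0163). BCL2L10, not called, turned positive after quantile normalization (0.039) and centring (0.035) and ran from -0.066 to 0.084 without single arrays. HRK turned to 0.043 as the mean of its probe sets but was called lower without PC-3/Mc replicate 3 (-0.28, adjusted p = 0.0462). TNFRSF10A turned to -0.015 after quantile normalization but was called higher as a gene mean (0.31, adjusted p = 0.0048). The called genes of the 10 lists numbered 47 to 72 in all. With olfactory receptor probe sets the background level was 5.46 in place of 5.18, and the bounds became 21.3-fold for BCL2A1, 1.02-fold for BCL2 203685_at and 1.04-fold for BCL2L11 222343_at. Deviations of same-numbered arrays from the means of their lines correlated at -0.01, -0.21 and -0.31 for numbers 1, 2 and 3. Those of arrays with different numbers correlated at -0.08 to 0.27. With 3 arrays per line such correlations cannot tell whether same-numbered arrays were handled together. With the replicate block 17443 probe sets and 62 list genes were called. The causes of these changes were not tested.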
